A study of Mus musculus with 9 samples.

Results

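Cd24a, the mouse gene of the surface protein CD24, was followed on 9 arrays together with genes of proteins that CD24 binds or acts through. Members were all probe sets annotated with exactly 1 of 10 gene symbols: Cd24a; the binding partners Siglecg, Selp, L1cam and Hmgb1; the Src family kinases Src, Fyn, Yes1 and Lyn; and the caveolin gene Cav1. A probe set was found for 9 of the 10, with 11 probe sets in all, out of 22180 genes named on the array. Lyn is unnamed here and has no value. Of the 12630 genes tested in the whole table, 9 were members.

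The cells were 3T3-L1 pre-adipocytes, a mouse fibroblast line able to turn into fat cells, kept for 48 h in growth arrest after confluence. There were 3 groups with 3 arrays each: 100 nmol of an siRNA against CD24 followed by 6 h of IBMX/Dex; the same amount of a scrambled siRNA followed by 6 h of IBMX/Dex; and vehicle. IBMX (0.5 mM) blocks phosphodiesterases and so raises cAMP, and Dex (dexamethasone, 1 µM) activates the glucocorticoid receptor; both start adipocyte differentiation. Whether siRNA was also given to the vehicle cells is not stated in the labels, so IBMX/Dex and transfection cannot be told apart in a comparison with vehicle. Nor is it stated that replicates were separate cultures, so a p-value here sets a difference against the spread of these 9 samples only. All 9 samples are 1 cell line, and no group received the siRNA against CD24 without IBMX/Dex.

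CD24 is a small, heavily glycosylated protein held in the outer membrane leaflet by a GPI anchor, and it marks adipocyte progenitors in mouse fat tissue. It has no cytoplasmic part and signals from lipid rafts, where Src family kinases sit on the inner leaflet. On other cells it is read by Siglec-G (Siglec-10 in human) and P-selectin, it interacts with the adhesion molecule L1, and with Siglec-G it dampens the response to HMGB1, a nuclear protein that acts as a danger signal outside the cell. Caveolin-1 builds caveolae, a raft-like membrane domain, and binds Src kinases.

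Levels are log2 RMA values, in which 1 unit is a 2-fold change, and levels of different probe sets are not comparable. The array medians lay between 6.47 and 6.56. Arrays of the same replicate number deviated together from their group means, so results are also given from a fit with the number as a block where it changes a call. On 1 array the target gene went against the label: the array labelled CD24 siRNA replicate 3 had about the scrambled level of Cd24a on both probe sets, and results are given with and without it. Because it was singled out by its Cd24a level, Cd24a results without it are descriptions and not a test. Of all probe sets, 32.9% hold exactly the same value on at least 2 arrays, and among the members this was so for Src, Fyn, L1cam and Yes1. All 8 pre-adipocyte and fibroblast markers were above the filter level of 6.51 used for testing, with Vim at 13.5 and the pre-adipocyte gene Dlk1 at 12.3. Of the mature adipocyte markers Fabp4 alone was tested (9.60), and Adipoq, Plin1, Cidec and Lep lay between 5.51 and 6.33. In such bulk samples, fewer cells of a type and less RNA per cell cannot be told apart.

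Siglecg and Fyn were the members that stood lower on all IBMX/Dex arrays than on all vehicle arrays, and the 250 bases before their annotated starts are shown here to set them side by side. The sequences are RefSeq's for GRCm38.p6, read 5′ to 3′ on the gene's strand. That of Siglecg lies at chr7:43407989-43408238 on the + strand, before the first of 2 annotated starts, and that of Fyn at chr10:39369549-39369798 on the + strand. Capitals mark matches on either strand to the cAMP response element TGACGTCA, to its core TGACG (contained in the full element), to the GC box GGGCGG or to the glucocorticoid response element, searched as GNACA and TGTNC with 3 bases between them.
Siglecg: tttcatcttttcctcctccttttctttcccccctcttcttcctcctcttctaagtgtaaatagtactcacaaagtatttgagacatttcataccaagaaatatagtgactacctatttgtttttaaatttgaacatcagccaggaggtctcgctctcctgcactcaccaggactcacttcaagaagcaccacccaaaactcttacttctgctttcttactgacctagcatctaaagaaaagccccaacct
Fyn: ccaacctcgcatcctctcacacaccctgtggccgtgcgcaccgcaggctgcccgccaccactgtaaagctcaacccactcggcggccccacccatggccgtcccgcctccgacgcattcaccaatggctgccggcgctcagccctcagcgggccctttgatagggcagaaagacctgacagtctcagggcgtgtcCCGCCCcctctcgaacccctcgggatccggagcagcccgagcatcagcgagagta
The Fyn window held 1 match, a GC box read on the other strand, 55 bases before the start, and the Siglecg window held none of the 4 motifs. GC content was 40.8% for Siglecg and 67.2% for Fyn. Among 32851 mouse promoter windows of the same length the shares with a match were 1.55% for the full cAMP element, 17.8% for its core, 32.7% for the GC box and 0.387% for the glucocorticoid element. A match is a description of letters and not of binding. The table has no entry for Cd24a or Lyn.

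Cd24a was the most variable member. On its brighter probe set (17233022) it stood at 10.15, 10.16 and 11.72 with CD24 siRNA and IBMX/Dex, at 11.19, 11.73 and 11.81 with scrambled siRNA and IBMX/Dex, and at 8.88, 9.92 and 9.49 with vehicle, for replicates 1, 2 and 3. On the second probe set (17240606) the levels were 7.22, 6.68 and 9.08 with CD24 siRNA, 9.28, 8.72 and 9.25 with scrambled siRNA, and 6.78, 6.42 and 6.69 with vehicle. On both probe sets every scrambled array was above every vehicle array, and on the brighter one the CD24 siRNA arrays of replicates 1 and 2 lay between these groups. On the second, CD24 siRNA replicate 1 lay between them and replicate 2 inside the vehicle range. The array labelled CD24 siRNA replicate 3 lay within the scrambled range, so the CD24 siRNA and scrambled groups overlapped. The probe sets followed each other over the 9 arrays with a Pearson correlation of 0.90.

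**Figure D1:**
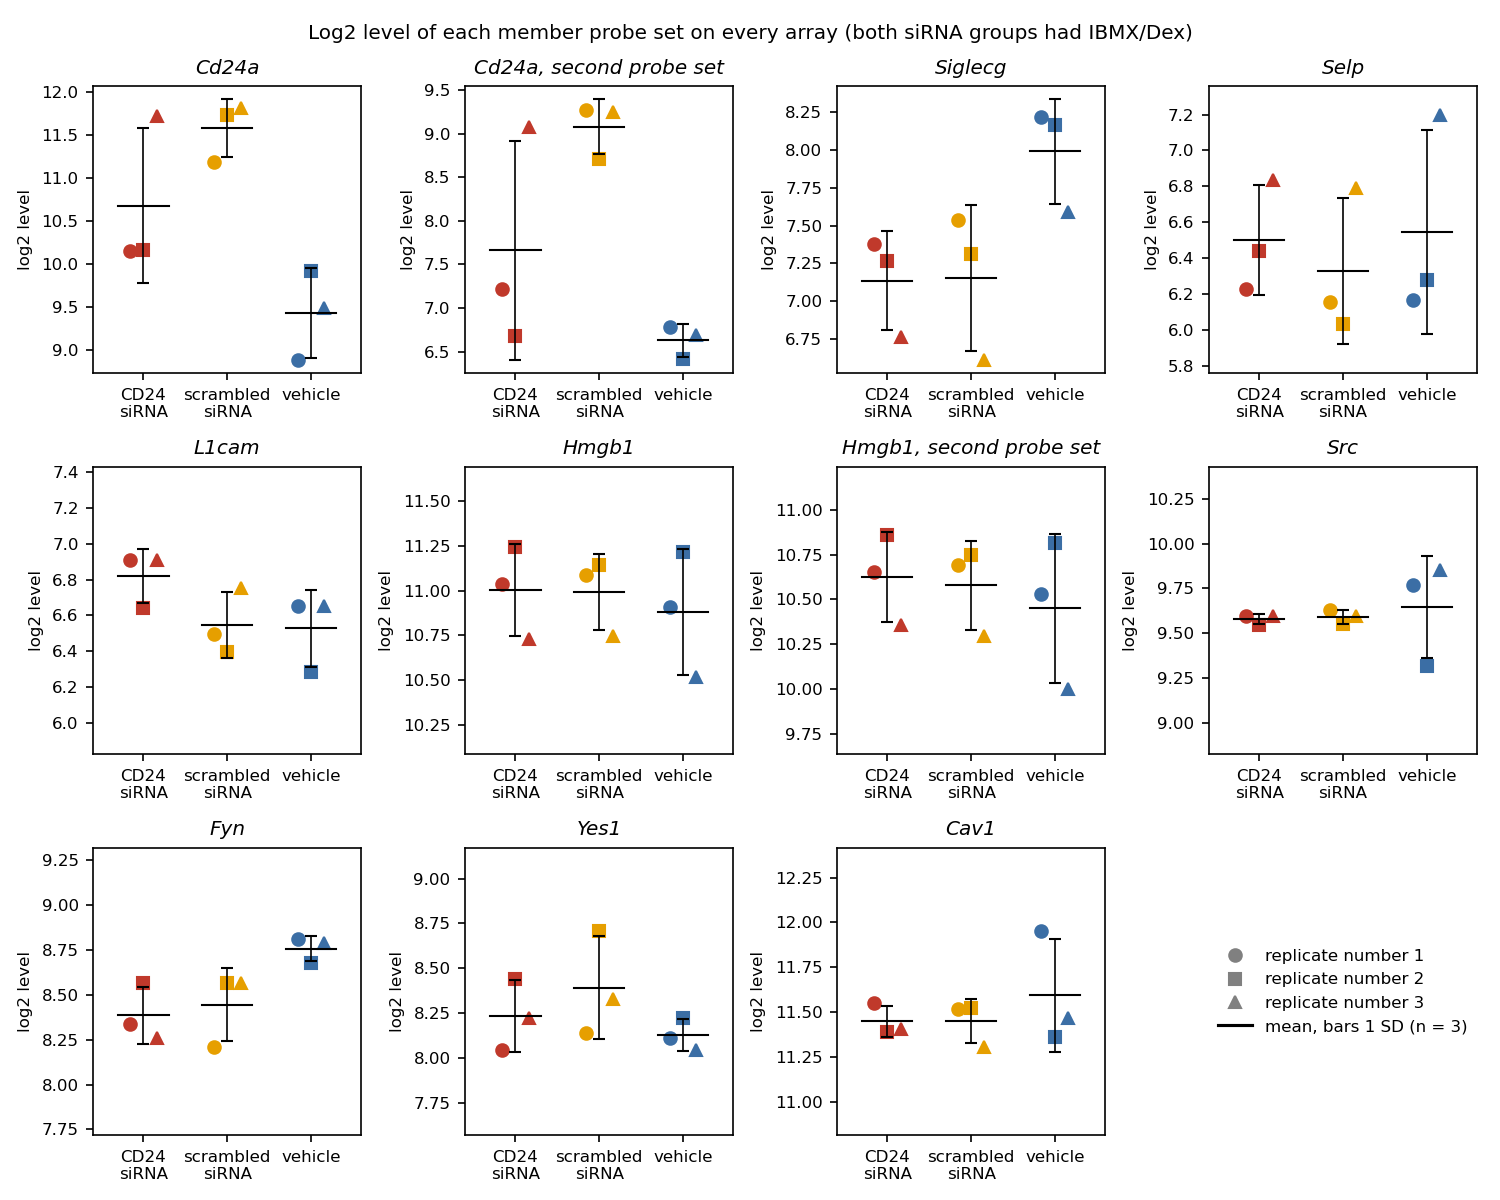
Log2 level (vertical axis) of each of the 11 member probe sets on every array, with CD24 siRNA left, scrambled siRNA in the middle and vehicle right; both siRNA groups had IBMX/Dex. The marker shape gives the replicate number, the line is the group mean and the bar 1 SD (n = 3). On both Cd24a probe sets the array labelled CD24 siRNA replicate 3 sits within the scrambled range, and Siglecg and Fyn are highest with vehicle.

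Set against vehicle, Cd24a was higher in both IBMX/Dex groups. With scrambled siRNA it rose 4.42-fold, a log2 difference of 2.15 ± 0.43 (SE; 95% interval 1.18 to 3.11, limma adjusted p = 0.0205). It was the only member of 9 to pass in that comparison, in which 6.94% of all tested genes passed and 3.33% rose. With the block 2 members passed, Cd24a and Siglecg, beside 23.3% of all genes. The second probe set gave 5.48-fold (difference 2.45, limma adjusted p = 0.0240), taken over vehicle levels (6.78, 6.42 and 6.69) near the filter level of 6.51. Between arrays of the same number the brighter probe set rose 4.95-fold, 3.50-fold and 5.01-fold, and the second 5.64-fold, 4.92-fold and 5.93-fold. Without the block the call rested on 3 arrays. Leaving out scrambled replicate 2 gave 2.07 (limma adjusted p = 0.0657), leaving out scrambled replicate 3 gave 2.03 (adjusted p = 0.0801), and without the vehicle array of replicate 3 it was 2.17 (adjusted p = 0.0595).

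With CD24 siRNA, Cd24a was 1.24 log2 units above vehicle (95% interval 0.28 to 2.21), which did not pass (limma adjusted p = 0.124) and did with the replicate block (adjusted p = 0.0143). In that comparison 6.65% of all genes passed without the block, 22.4% with it, and the members that passed were 0 of 9 without it and 2 with it, Cd24a and Siglecg. Without the block 3 of 9 members had an unadjusted limma p under 0.05 (Cd24a, Siglecg and Fyn), as did 22.2% of all genes. The brighter probe set gave same-numbered ratios to vehicle of 2.41, 1.18 and 4.68, and the second gave 1.36, 1.20 and 5.25. The third ratio, from the array labelled CD24 siRNA replicate 3, was the highest on both. Without that array the difference was 0.72 (limma adjusted p = 0.253), and with the block as well it was 0.80 (adjusted p = 0.0350, where 14.0% of all genes passed). On the second probe set the difference was 1.03 (limma adjusted p = 0.274, and 0.0674 with the block). Both comparisons share the vehicle arrays.

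Between CD24 siRNA and scrambled siRNA, Cd24a was lower with CD24 siRNA by a log2 difference of -0.90 (95% interval -1.87 to 0.06), or 1.87-fold. The level with CD24 siRNA was 48.7%, 33.7% and 93.5% of that on the same-numbered scrambled array, and 24.1%, 24.4% and 88.5% on the second probe set. In replicates 1 and 2 the second probe set thus showed the lower remaining level. On that probe set the level of CD24 siRNA replicate 2 (6.68) was near the filter level of 6.51. No tested gene passed in this comparison in limma (0.0% of 12630), with or without the block. At an unadjusted p under 0.05 there were 30 genes (0.238%), and 219 (1.73%) with the block. Of the 9 members 0 were among the 30, and 2 (Cd24a and L1cam) among the 219. Cd24a had an unadjusted p of 0.0638 in limma (0.0118 with the block, adjusted p = 1 in both). On the second probe set the unadjusted p was 0.0205 (0.00297 with the block).

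Among the 12630 tested genes Cd24a had the most negative difference in this comparison, and that was so with or without the block and whether or not the third CD24 siRNA array was kept. By p it was number 46 of the tested genes in the fit on all arrays, number 32 with the block, number 1 without that array and number 2 without it and with the block. That array was singled out by its high Cd24a level, so leaving it out was bound to enlarge the fall. The ranks and p-values without it are thus no support for a knockdown. Without that array the difference was -1.42 (2.68-fold lower, with an unadjusted p of 0.00155 in limma and an adjusted p of 1). With the block as well it was -1.35 (unadjusted p = 1.15e-04, adjusted p = 0.728).

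**Figure D2:**
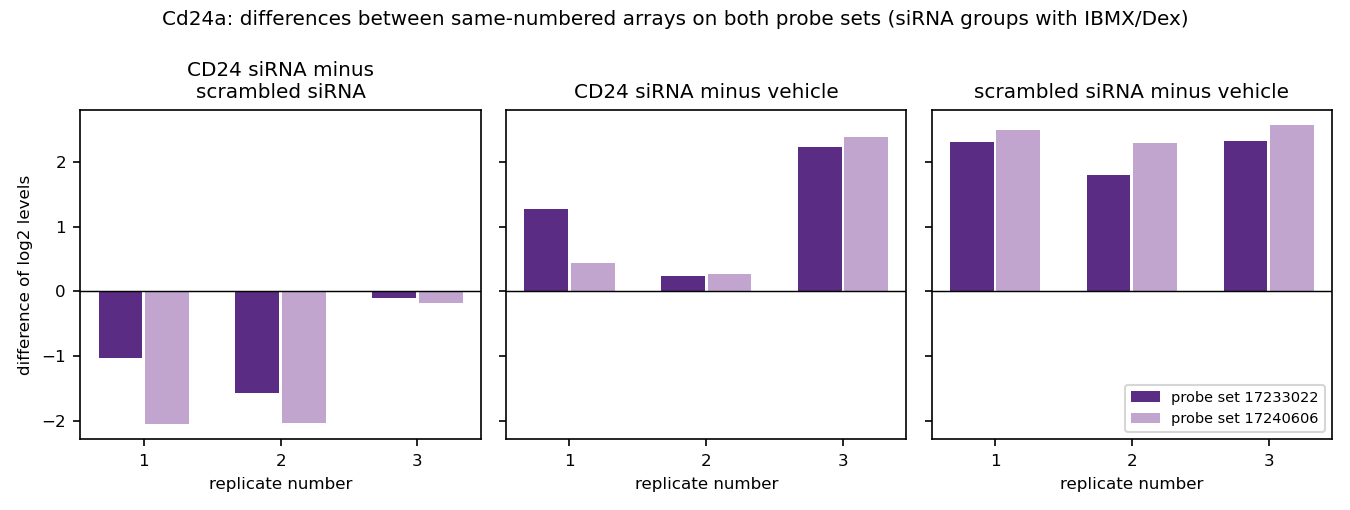
Differences of Cd24a log2 level (vertical axis) between arrays of the same replicate number (horizontal axis) for CD24 siRNA minus scrambled siRNA, CD24 siRNA minus vehicle and scrambled siRNA minus vehicle, with a dark bar for the brighter and a light bar for the second probe set; both siRNA groups had IBMX/Dex. Against scrambled siRNA the dark bars reach -1.04, -1.57 and -0.10, and the light bars -2.05, -2.03 and -0.18.

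Of the binding partners, Siglecg, the gene of the inhibitory sialic acid receptor Siglec-G, differed from vehicle by the largest amount. It stood at 7.38, 7.27 and 6.77 with CD24 siRNA, at 7.54, 7.31 and 6.61 with scrambled siRNA, and at 8.21, 8.16 and 7.59 with vehicle. All 6 IBMX/Dex arrays were below all 3 vehicle arrays, and within each group replicate 3 was the lowest. The CD24 siRNA group was 0.85 log2 units lower than vehicle (difference -0.85, 95% interval -1.46 to -0.24) and the scrambled group 0.83 lower (difference -0.83, 95% interval -1.45 to -0.22). Neither passed in limma without the block (adjusted p = 0.102 and 0.104), and both did with it (adjusted p = 5.14e-04 and 5.28e-04), when 22.4% and 23.3% of all tested genes passed. With the array labelled CD24 siRNA replicate 3 left out, the CD24 siRNA difference was -0.90 with the block (limma adjusted p = 0.00255) and -0.67 without it (adjusted p = 0.275).

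The groups of Siglecg overlapped between CD24 siRNA and scrambled siRNA, with a difference of -0.02 (95% interval -0.63 to 0.60). Siglec-G is known above all from B cells. Of the 5 B cell markers listed, the 4 with a probe set (Cd79a, Cd79b, Ms4a1 and Pax5) were below the filter, at mean levels of 4.97 to 6.18. The summed level of the 4 was 7.93 to 8.10 with CD24 siRNA, 7.85 to 7.93 with scrambled siRNA and 7.75 to 7.83 with vehicle, and its part in the Siglecg result was not tested.

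Selp encodes P-selectin, the adhesion molecule of platelets and endothelium. Its levels were 6.23, 6.44 and 6.84 with CD24 siRNA, 6.16, 6.03 and 6.79 with scrambled siRNA, and 6.16, 6.28 and 7.20 with vehicle. It reached the filter level on 3 of 9 arrays, those of replicate number 3, and all groups overlapped. The differences were 0.17 for CD24 siRNA against scrambled siRNA (95% interval -0.51 to 0.86), -0.05 for CD24 siRNA against vehicle and -0.22 for scrambled siRNA against vehicle. Among endothelial markers Cdh5 alone was tested (mean level 6.75). The 3 platelet markers tested were Ppbp (8.11), Itga2b (7.21) and Gp9 (6.49), and Pf4 (6.11) was below the filter. The summed level of the platelet markers was 9.10 to 9.42 with CD24 siRNA, 9.10 to 9.37 with scrambled siRNA and 8.98 to 9.40 with vehicle. The part of these markers in the Selp values was not tested.

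L1cam encodes the neural adhesion molecule L1. It stood at 6.91, 6.64 and 6.91 with CD24 siRNA, at 6.50, 6.40 and 6.75 with scrambled siRNA, and at 6.65, 6.28 and 6.65 with vehicle. On each replicate number the CD24 siRNA array was the highest of the 3, while the groups overlapped. It was also dim, reaching the filter level on 6 of 9 arrays. The difference was 0.27 from scrambled siRNA (95% interval -0.07 to 0.61). In limma across all genes its unadjusted p was 0.102, and 0.0203 with the block (adjusted p = 1 in both). From vehicle it was 0.29 with CD24 siRNA (limma adjusted p = 0.295) and 0.02 with scrambled siRNA (adjusted p = 0.957).

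Hmgb1 encodes an abundant chromatin protein. The brighter of its 2 probe sets (17547787) gave 11.04, 11.24 and 10.73 with CD24 siRNA, 11.09, 11.14 and 10.75 with scrambled siRNA, and 10.91, 11.21 and 10.52 with vehicle. In each group replicate 3 was the lowest, and the groups overlapped. The difference from vehicle was 0.12 with CD24 siRNA (95% interval -0.34 to 0.58) and 0.11 with scrambled siRNA (95% interval -0.35 to 0.57). The second probe set (17548281) followed the first over the 9 arrays at a correlation of 0.99. A further 6 probe sets are annotated to Hmgb1 and another gene together and were left out.

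Among the Src kinases, Fyn was the one whose groups did not overlap with vehicle. Fyn levels were 8.34, 8.56 and 8.26 with CD24 siRNA, 8.21, 8.56 and 8.56 with scrambled siRNA, and 8.81, 8.68 and 8.79 with vehicle. All 6 IBMX/Dex arrays were below the vehicle arrays, and 3 of the 6 (CD24 siRNA replicate 2 and scrambled replicates 2 and 3) held exactly the same value. The difference was -0.37 with CD24 siRNA (95% interval -0.67 to -0.07, limma adjusted p = 0.137, and 0.0578 with the block). It was -0.31 with scrambled siRNA (95% interval -0.61 to -0.01, limma adjusted p = 0.203, and 0.0994 with the block). Fyn therefore passed in neither fit, and between CD24 siRNA and scrambled siRNA its difference was -0.06 (95% interval -0.36 to 0.24).

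Src, which gave the family its name, had the smallest spread of the members among IBMX/Dex arrays. It stood at 9.59, 9.55 and 9.59 with CD24 siRNA, at 9.63, 9.55 and 9.59 with scrambled siRNA, and at 9.77, 9.32 and 9.85 with vehicle. The 6 IBMX/Dex arrays lay inside the vehicle range, and CD24 siRNA replicates 1 and 3 and scrambled replicate 3 held exactly the same value. Such ties limit what a spread between these arrays means. The intervals were -0.33 to 0.30 for CD24 siRNA against scrambled siRNA, -0.38 to 0.25 for CD24 siRNA against vehicle and -0.37 to 0.26 for scrambled siRNA against vehicle.

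Yes1, the close relative of Src found in most cell types, stood at 8.04, 8.44 and 8.22 with CD24 siRNA, at 8.14, 8.71 and 8.33 with scrambled siRNA, and at 8.11, 8.22 and 8.04 with vehicle. Replicate 2 was the highest of each group, and on every number the scrambled array was above both others. The groups overlapped. The difference was -0.16 for CD24 siRNA against scrambled siRNA (95% interval -0.52 to 0.21) and 0.11 for CD24 siRNA against vehicle (95% interval -0.26 to 0.47). It was 0.27 for scrambled siRNA against vehicle (95% interval -0.10 to 0.63, limma adjusted p = 0.376, and 0.105 with the block).

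Cav1, the caveolin gene, stood at 11.55, 11.39 and 11.41 with CD24 siRNA, at 11.52, 11.52 and 11.31 with scrambled siRNA, and at 11.95, 11.36 and 11.47 with vehicle. Vehicle replicate 1 was the highest of the 9 arrays, and the other 8 lay between 11.31 and 11.55, so the groups overlapped. The intervals were -0.36 to 0.35 for CD24 siRNA against scrambled siRNA, and -0.50 to 0.21 for either IBMX/Dex group against vehicle. Src and Cav1 are given by their intervals because the sign of their difference between the siRNA groups turned with quantile normalization (0.01 for both).

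**Figure D3:**
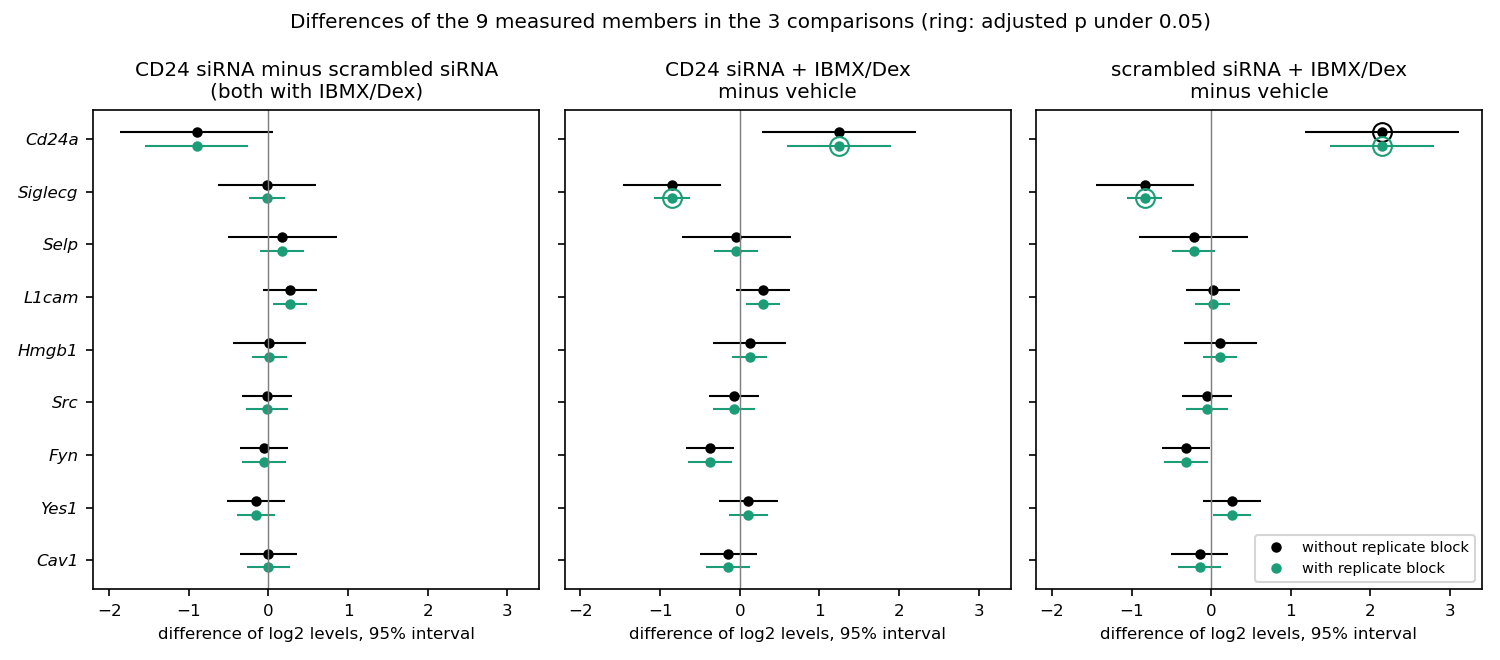
Differences of log2 level (horizontal axis) with 95% intervals for the 9 measured members in the 3 comparisons, without (black) and with (green) the replicate block; a ring marks an adjusted p under 0.05. Cd24a is ringed against vehicle with scrambled siRNA in both fits and with CD24 siRNA in the blocked fit, Siglecg against vehicle in the blocked fit, and no member between CD24 siRNA and scrambled siRNA.

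Counted over the 9 members, 3 had groups that did not overlap between CD24 siRNA and vehicle, where this held for 25.8% of all tested genes, and the same 3 between scrambled siRNA and vehicle, where it held for 25.2%. They were Cd24a, higher than vehicle, and Siglecg and Fyn, lower. Between CD24 siRNA and scrambled siRNA it was 0 of 9 members and 2.41% of all genes. The 3 same-numbered differences had 1 sign in 4 members in that last comparison (21.9% of all genes): Cd24a and Yes1 were lower, and Selp and L1cam higher, with CD24 siRNA on each number. Against vehicle they had 1 sign in 5 members with CD24 siRNA (Cd24a, L1cam and Hmgb1 higher, Siglecg and Fyn lower) and in 5 with scrambled siRNA (Cd24a and Yes1 higher, Siglecg, Selp and Fyn lower). Those shares over all genes were 51.3% and 51.9%. The median difference of the members was -0.01 for CD24 siRNA against scrambled siRNA, -0.05 for CD24 siRNA against vehicle and -0.06 for scrambled siRNA against vehicle, beside -0.01, 0.02 and 0.02 over all tested genes.

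The members differed in whether they varied with the group or with the replicate number. The group held 74.3% of the sum of squares over 9 arrays for Cd24a, 62.3% for Fyn and 60.8% for Siglecg, beside a median of 28.3% over all tested genes. The replicate number held 88.8% for Hmgb1 and 85.0% for Selp, beside a median of 36.2%. L1cam (43.5% group, 48.6% number) and Siglecg (37.8% number) had sizeable shares of both. The SD over 9 arrays was 1.08 log2 units for Cd24a and 0.54 for Siglecg, and it lay between 0.15 (Src) and 0.39 (Selp) for the other members, with a median of 0.21 over all genes.

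**Figure D4:**
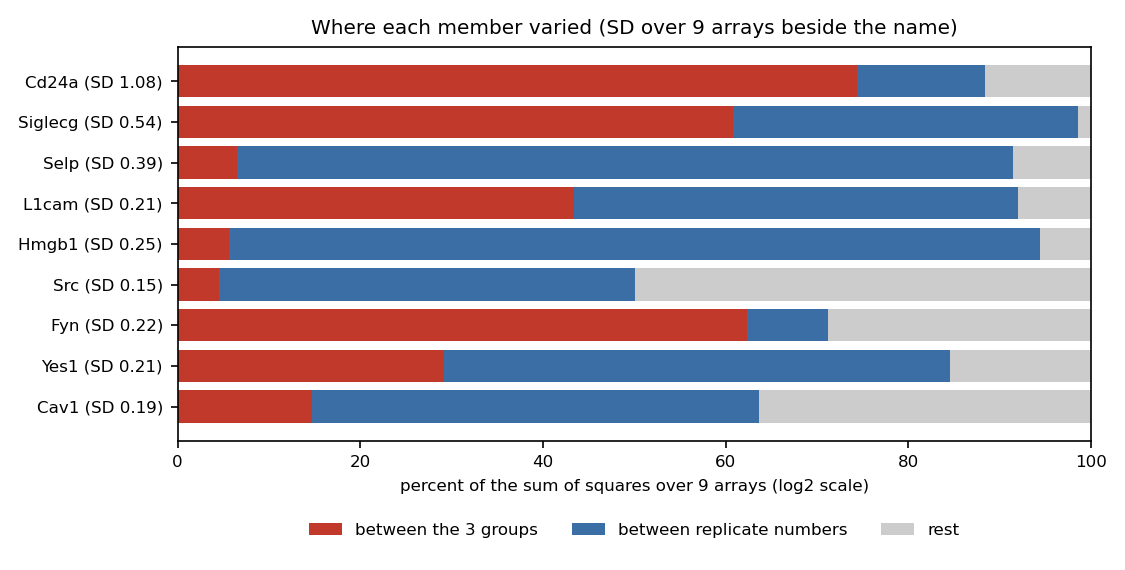
Percent of each member's sum of squares over 9 arrays on the log2 scale (horizontal axis) that lies between the 3 groups, between replicate numbers and in the rest; the SD over 9 arrays stands beside each name. Cd24a (74.3%), Fyn (62.3%) and Siglecg (60.8%) have the largest shares between groups, and Hmgb1 and Selp the largest between replicate numbers.

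The genes whose levels were most like those of Cd24a over the 9 arrays were the transcription factor gene Maf (Pearson correlation 0.92), Pttg1ip (0.92), Mlxip, which encodes the glucose-responsive factor MondoA (0.92), Tmem87b (0.92) and Txlng (0.91). With the mean of each replicate number taken out they were Tmem123 (0.99), the alkaline phosphatase gene Akp3 (0.98), the cyclin L1 gene Ccnl1 (0.97), Zfp933 (0.97) and the neurofilament gene Nefh (0.97). These describe 9 arrays of 3 groups and were picked out of all tested genes for being the highest. On the CD24 siRNA arrays Akp3 stood at 6.65, 5.95 and 6.73, against 7.20, 6.44 and 6.83 with scrambled siRNA and 5.84, 5.54 and 5.54 with vehicle. Its lowest scrambled array was thus below 2 CD24 siRNA arrays. Among the members the correlation with Cd24a was -0.80 for Siglecg, -0.64 for Fyn, -0.56 for Cav1, 0.54 for Yes1 and -0.31 for Src, and it lay between 0.01 and 0.09 for Hmgb1, Selp and L1cam. With the mean of each replicate number taken out it was -0.80 for Siglecg and Fyn, -0.76 for Selp, 0.72 for Yes1, 0.68 for Hmgb1, -0.48 for Cav1, -0.45 for Src and 0.06 for L1cam. Selp and Hmgb1 were thus far from 0 only on the second measure.

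Other genes around CD24 and the Src kinases were counted in 9 lists, with 62 of 88 genes tested. Against vehicle 7 of the 62 passed with CD24 siRNA (3 rose and 4 fell) and 7 with scrambled siRNA (3 rose and 4 fell), beside the 6.65% and 6.94% of all genes given above. Of all genes 2.92% rose and 3.73% fell with CD24 siRNA, and 3.33% rose and 3.6% fell with scrambled siRNA. With the block 19 of the 62 passed in each, beside 22.4% and 23.3% of all genes. With CD24 siRNA 6 of these rose and 13 fell, where 10.4% of all genes rose and 12.1% fell. With scrambled siRNA 8 rose and 11 fell, where it was 11.9% and 11.4%. With the block and without the array labelled CD24 siRNA replicate 3, 13 of the 62 passed with CD24 siRNA and 19 with scrambled siRNA, beside 14.0% and 23.2% of all genes. Genes named below that passed only with the block, other than Cavin3, Pigp, Ptk2b, Ctnnd1 and Frk, were picked after their values were seen. Between CD24 siRNA and scrambled siRNA 0 of 62 passed in limma with or without the block, and at an unadjusted p under 0.05 there were 0 without it and 1 with it. The median difference from vehicle of the 62 was -0.14 with CD24 siRNA and -0.11 with scrambled siRNA, beside 0.02 over all tested genes in both.

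**Figure D5:**
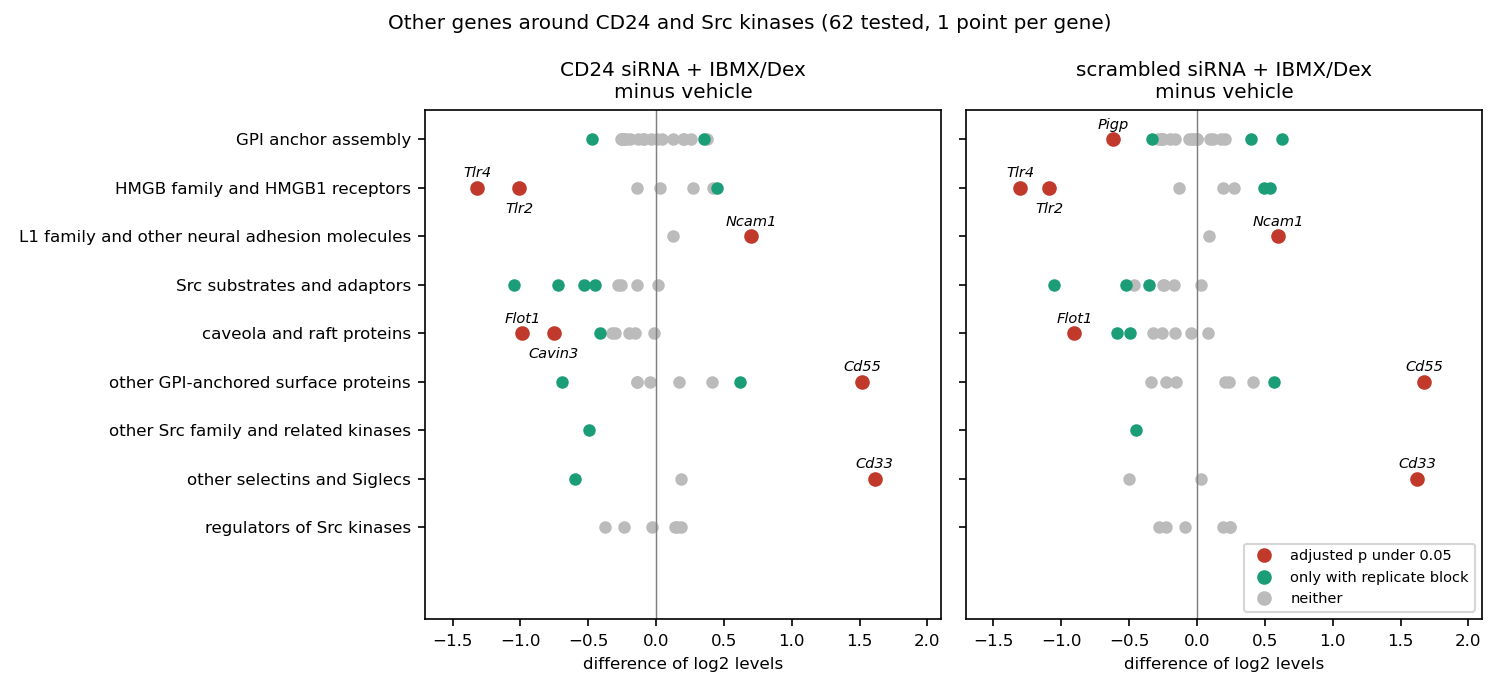
Differences of log2 level from vehicle (horizontal axis) for 62 genes of 9 lists (rows), with CD24 siRNA and IBMX/Dex left and scrambled siRNA and IBMX/Dex right, 1 point per gene. Red genes had an adjusted p under 0.05, green ones only with the replicate block; Cd55 and Cd33 lie farthest right and Tlr4 farthest left in both panels.

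HMGB1 outside the cell is sensed by Toll-like receptors, and Tlr4 and Tlr2, both listed here, fell. Tlr4 stood at 6.21, 6.45 and 6.03 with CD24 siRNA, at 5.96, 6.42 and 6.35 with scrambled siRNA, and at 7.26, 7.41 and 7.98 with vehicle. All IBMX/Dex arrays were below all vehicle arrays. Its difference from vehicle was -1.32 with CD24 siRNA (limma adjusted p = 0.00843) and -1.30 with scrambled siRNA (adjusted p = 0.00857). Every IBMX/Dex array of Tlr4 lay below the filter level of 6.51, and the gene was tested through its vehicle arrays alone. The size of the fall thus rests on levels under the filter. Tlr2 stood at 7.95, 8.05 and 7.59 with CD24 siRNA, at 7.80, 8.12 and 7.43 with scrambled siRNA, and at 8.85, 9.18 and 8.59 with vehicle, again without overlap. The differences were -1.01 (limma adjusted p = 0.0270) and -1.09 (adjusted p = 0.0191), and without the block Tlr2 lost its call without any 1 of 5 arrays with CD24 siRNA (its replicates 1, 2 and 3 and vehicle replicates 1 and 2, adjusted p of 0.0529 or more) and without any 1 of 3 with scrambled siRNA (its replicates 1 and 3 and vehicle replicate 2, adjusted p up to 0.0700). The scrambled siRNA call of Tlr2 was also lost in a fit of only the 2 groups compared (adjusted p = 0.0535). Of the 5 further genes tested in this list none passed without the block. With it Hmgb3, which encodes a chromatin protein of the HMGB1 family, rose in both comparisons (difference 0.45 with CD24 siRNA and 0.49 with scrambled siRNA, limma adjusted p = 0.0380 and 0.0252). Havcr2, the gene of the receptor TIM-3, rose with scrambled siRNA (difference 0.54, limma adjusted p = 0.0402 with the block) and had a difference of 0.42 with CD24 siRNA (adjusted p = 0.0981). With the block the list of 7 thus held 1 gene that rose and 2 that fell with CD24 siRNA, where 10.4% of all genes rose and 12.1% fell. It held 2 that rose and 2 that fell with scrambled siRNA, where it was 11.9% and 11.4%.

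Of 8 tested raft and caveola genes, 2 fell with CD24 siRNA and 1 with scrambled siRNA, and 0 rose, where 3.73% and 3.6% of all genes fell. With the block 3 of 8 fell in each, where 12.1% and 11.4% of all genes fell. The gene added by the block in both was Flot2, the gene of flotillin-2 (difference -0.41 with CD24 siRNA and -0.49 with scrambled siRNA, limma adjusted p = 0.0399 and 0.0186). Flot1, which encodes the raft protein flotillin-1, stood at 8.58, 8.65 and 8.72 with CD24 siRNA, at 8.80, 8.59 and 8.80 with scrambled siRNA, and at 9.35, 9.59 and 9.97 with vehicle, with no overlap. The difference was -0.99 with CD24 siRNA (limma adjusted p = 0.00814) and -0.90 with scrambled siRNA (adjusted p = 0.0115). Cavin3, a coat protein of caveolae, was at 10.51, 10.37 and 10.13 with CD24 siRNA, at 10.79, 10.46 and 10.26 with scrambled siRNA, and at 11.33, 11.11 and 10.83 with vehicle. It fell by 0.75 with CD24 siRNA (limma adjusted p = 0.0400) and had a difference of -0.59 with scrambled siRNA (adjusted p = 0.0869, and 0.00200 with the block). The CD24 siRNA call of Cavin3 was lost with no filter (limma adjusted p = 0.0608), with arrays centred on their medians (0.0550), in a fit of only the 2 groups compared (0.0588) and without any 1 of CD24 siRNA replicates 1, 2 and 3, scrambled replicate 2 or vehicle replicates 1 and 2 (adjusted p between 0.0618 and 0.133).

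Cd55, like CD24 a GPI-anchored surface protein and known as an inhibitor of complement, rose. Its levels were 7.48, 8.02 and 7.02 with CD24 siRNA, 7.60, 7.98 and 7.40 with scrambled siRNA, and 6.01, 6.39 and 5.56 with vehicle, with no overlap. That is 2.86-fold with CD24 siRNA (difference 1.52, limma adjusted p = 0.0173) and 3.19-fold with scrambled siRNA (difference 1.67, adjusted p = 0.0111). Every vehicle array of Cd55 lay below the filter level of 6.51, and the gene was tested through its IBMX/Dex arrays alone. Both folds are thus taken over a level under the filter. The call with CD24 siRNA was lost without any 1 of CD24 siRNA replicates 1 and 2 and vehicle replicate 3 (limma adjusted p between 0.0531 and 0.0571). Of 8 tested genes for GPI-anchored proteins Cd55 was the 1 that passed without the block, where 6.65% and 6.94% of all genes passed. With the block Cd109 rose as well (difference 0.62 with CD24 siRNA and 0.56 with scrambled siRNA, limma adjusted p = 0.00750 and 0.0108). Ly6c1 fell with CD24 siRNA in that fit (difference -0.69, limma adjusted p = 0.0122) and had a difference of -0.34 with scrambled siRNA (adjusted p = 0.149). The mean level of Ly6c1 over all arrays was 6.32, below the filter level of 6.51. The size of its fall thus rests in part on levels under the filter. Of 19 tested genes of GPI anchor assembly, Pigp, a subunit of the enzyme that starts the anchor, fell with scrambled siRNA (difference -0.62, limma adjusted p = 0.0294) and had a difference of -0.47 with CD24 siRNA (adjusted p = 0.0714, and 0.0226 with the block). Without the block the Pigp call was lost without any 1 of scrambled replicates 2 and 3, vehicle replicates 2 and 3 or CD24 siRNA replicate 2 (limma adjusted p between 0.0513 and 0.112), and in a fit of only the 2 groups compared (0.0668). With the block 1 of the 19 rose and 1 fell with CD24 siRNA, where 10.4% of all genes rose and 12.1% fell. With scrambled siRNA 2 rose and 2 fell, where it was 11.9% and 11.4%. Pigm, the gene of a mannosyltransferase of the anchor, rose in both (difference 0.35 with CD24 siRNA and 0.40 with scrambled siRNA, limma adjusted p = 0.0207 and 0.0119). Piga, which encodes the catalytic subunit of the enzyme that starts the anchor, rose with scrambled siRNA (difference 0.62, limma adjusted p = 0.00836 with the block), and Pigu fell with it (difference -0.34, adjusted p = 0.0471). With CD24 siRNA their differences were 0.37 and -0.20 (limma adjusted p = 0.0664 and 0.222 with the block).

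Cd33 encodes a sialic acid receptor of the same family as Siglec-G and had differences of the opposite sign. It stood at 9.17, 9.28 and 10.19 with CD24 siRNA, at 9.26, 9.59 and 9.82 with scrambled siRNA, and at 7.48, 7.54 and 8.79 with vehicle. Vehicle replicate 3 was the highest vehicle array and still below all IBMX/Dex arrays. The rise was 3.06-fold with CD24 siRNA (limma adjusted p = 0.0391) and 3.08-fold with scrambled siRNA (adjusted p = 0.0373), and both calls were lost with no filter (adjusted p = 0.0624 and 0.0596) and in a fit of only the 2 groups compared (0.0834 and 0.0668). The first was also lost without any 1 of 7 arrays (limma adjusted p between 0.0592 and 0.124, all but scrambled replicate 1 and vehicle replicate 3), and the second without any 1 of 7 (adjusted p up to 0.125, all but CD24 siRNA replicate 3 and vehicle replicate 3). The other Siglec gene to pass in any of these fits was Siglec1, which fell with CD24 siRNA with the block (difference -0.60, limma adjusted p = 0.0468) and had a difference of -0.50 with scrambled siRNA (adjusted p = 0.0824). Its mean level over the 9 arrays was 6.68, near the filter level of 6.51. With the block 1 of the 3 tested genes of this list rose and 1 fell with CD24 siRNA, where 10.4% and 12.1% of all genes did. With the block and without CD24 siRNA replicate 3, 0 of the 3 fell. Cd33 is known from myeloid cells. Of the macrophage markers Cd68 (mean level 8.26) and Csf1r (6.97) were tested. Ptprc, the pan-leukocyte gene (4.70), Adgre1 (5.82) and Itgam (5.99) were below the filter. With the block and without CD24 siRNA replicate 3, 1 of the 2 tested rose with CD24 siRNA (limma adjusted p = 0.0282). In that fit 1 also rose with scrambled siRNA (limma adjusted p = 0.0361), where 7.28% and 11.5% of all genes rose. The summed level of the 5 macrophage markers was 9.22 to 9.38 with CD24 siRNA, 9.14 to 9.32 with scrambled siRNA and 8.93 to 9.09 with vehicle, and its part in the Cd33 result was not tested.

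Ncam1, a neural adhesion molecule listed beside L1, rose by 0.70 with CD24 siRNA (limma adjusted p = 0.0160) and by 0.60 with scrambled siRNA (adjusted p = 0.0276). It stood at 11.15, 11.03 and 11.18 with CD24 siRNA, at 10.76, 11.19 and 11.09 with scrambled siRNA, and at 10.47, 10.32 and 10.46 with vehicle. The IBMX/Dex arrays were all above the vehicle arrays, and without the block the first call was lost without CD24 siRNA replicate 1 or 3 (limma adjusted p = 0.0598 and 0.0632) and the second without scrambled replicate 2 or 3 or vehicle replicate 2 or 3 (adjusted p between 0.0646 and 0.104) and in a fit of only the 2 groups compared (0.0801). Of the 2 neuron markers tested, Tubb3 rose with CD24 siRNA with the block (difference 0.62, limma adjusted p = 0.0147, and 0.383 without the block). In that comparison 10.4% of all genes rose with the block. With scrambled siRNA Tubb3 had a difference of 0.25 (adjusted p = 0.255 with the block). The other, Rbfox3, passed in neither comparison (difference 0.09 with CD24 siRNA and 0.17 with scrambled siRNA, limma adjusted p = 0.652 and 0.331 with the block). Snap25, Syp and Nefl were below the filter. The part of these markers in the Ncam1 and L1cam values was not tested.

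No listed gene of the kinase lists passed without the block. The closest were the Src substrates Ptk2b, the focal adhesion kinase relative PYK2, and Ctnnd1, the catenin p120. Ptk2b stood at 7.07, 6.73 and 6.95 with CD24 siRNA, at 7.09, 6.78 and 6.87 with scrambled siRNA, and at 8.04, 7.29 and 8.56 with vehicle. All vehicle arrays were the higher ones, with replicate 2 the lowest of them. The difference was -1.05 in both comparisons (limma adjusted p = 0.0537 with CD24 siRNA and 0.0524 with scrambled siRNA, and 0.00520 and 0.00493 with the block). Ctnnd1 had differences of -0.45 and -0.52 (limma adjusted p = 0.0817 and 0.0511, and 0.00869 and 0.00425 with the block). With the block the adaptor gene Bcar1 fell in both comparisons (difference -0.53 with CD24 siRNA and -0.36 with scrambled siRNA, limma adjusted p = 0.00533 and 0.0291). The adaptor gene Dok1 fell with CD24 siRNA (difference -0.72, limma adjusted p = 0.0140 with the block) and had a difference of -0.46 with scrambled siRNA (adjusted p = 0.0769). That made 4 of 8 tested substrates and adaptors that fell with CD24 siRNA and 3 with scrambled siRNA, where 12.1% and 11.4% of all genes fell. With the block and without the array labelled CD24 siRNA replicate 3, 3 of the 8 fell with CD24 siRNA, where 6.68% of all genes fell.

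Frk, a kinase related to the Src family, had differences of -0.49 with CD24 siRNA and -0.45 with scrambled siRNA (limma adjusted p = 0.125 and 0.158, and 0.0130 and 0.0190 with the block). Of the regulators of Src kinases, the phosphatase gene Ptpra, whose product removes the inhibitory phosphate of Src, had differences of -0.24 and -0.23. The phosphatase gene Ptpn11 had 0.14 with CD24 siRNA and 0.24 with scrambled siRNA. None of the 6 tested regulators passed in either fit. Beside these differences from vehicle, 2 of the 8 pre-adipocyte and fibroblast markers fell in both IBMX/Dex groups without the block, the receptor genes Pdgfra and Pdgfrb, where 3.73% and 3.6% of all genes fell. The Pdgfra call was lost without any 1 of 4 arrays in either comparison (CD24 siRNA replicates 1, 2 and 3 and vehicle replicate 3 with CD24 siRNA, limma adjusted p between 0.0515 and 0.0602; scrambled replicates 1 and 3 and vehicle replicates 2 and 3 with scrambled siRNA, adjusted p between 0.0532 and 0.0649). With scrambled siRNA it was also lost in a fit of only the 2 groups compared (0.0643). With the block the collagen gene Col1a2 fell too (limma adjusted p = 0.00666 with CD24 siRNA and 0.00275 with scrambled siRNA), and Col1a1 fell with scrambled siRNA (adjusted p = 0.0132). That made 3 of 8 with CD24 siRNA and 4 of 8 with scrambled siRNA, where 12.1% and 11.4% of all genes fell. The summed level of the 8 was 15.1 on the CD24 siRNA arrays, 15.0 to 15.2 on the scrambled arrays and 15.3 to 15.4 on the vehicle arrays, and its part in these results was not tested.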

How the data were processed

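RNA (250 ng per sample) from 9 samples was labelled and hybridised to single-colour arrays, 1 array each. The deposited table holds log2 values for 41345 probe sets, which the authors made with RMA and the oligo package, per the submitters' processing notes, with no version stated. RMA makes the distributions of the arrays nearly equal, which would hide a shift of most transcripts in 1 direction, and it shrinks differences of dim probe sets. The values were used as deposited.

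Genes were named from the platform annotation, where 23521 probe sets have 1 symbol, 1814 several and 16010 are not named here, and 0 symbols changed against RefSeq's identifiers. The brightest probe set by the mean of 9 arrays stood for a gene, and testing required at least 3 of a gene's 9 values at or above the table's median, 6.51. Differences were fitted with limma 3.58.1 (R 4.3.3, lmFit and eBayes) on all 9 arrays with 1 mean per group, and p-values, all two-sided, were adjusted by Benjamini-Hochberg over the 12630 genes tested at a threshold of 0.05. The fits were tested on simulated data with normal noise, each time with the model that matched the simulation. Exact ties, and a fit without the block to arrays paired by number, were not simulated.

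The titles give the replicate numbers. Deviations from the group means had correlations of 0.377 to 0.732 in the 9 pairs of arrays with the same number. In the 18 other pairs they were at most 0.116. The main fit had no block and so did not use this pairing of arrays. A block for the number was an alternative. The others were to omit each array in turn, to filter at 8.07 or not at all, to quantile-normalize, to centre arrays on their medians, to average the probe sets of a gene, to use a prior with an intensity trend, and to fit only the compared groups. The number of arrays limits the precision.

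Members and lists were chosen with earlier results of these data known. Listed genes named by rule are those that passed without the block, at most 4 per list and comparison, or otherwise the 2 with the smallest p. Further listed genes that passed only with the block were picked after their values were seen. No genome was used, and promoter windows are RefSeq's (GRCm38.p6).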

Additional observations from a re-analysis of the deposited data

How the results depend on the processing

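The CD24 siRNA replicate 3 array, exact ties in 32.9% of probe sets and 3 arrays per group limit these results, and values of dim probe sets such as Selp and L1cam lie near the filter level. Without the block, leaving out 1 array gave a Cd24a difference of 1.87 to 2.39 for scrambled siRNA against vehicle, 0.72 to 1.51 for CD24 siRNA against vehicle and -1.42 to -0.64 for CD24 siRNA against scrambled siRNA. The first lost its call without scrambled replicate 2 or 3 or vehicle replicate 3, so that 0 to 1 members passed. With the replicate block the difference of 1.24 between CD24 siRNA and vehicle passed, as did 0.80 with the block and without CD24 siRNA replicate 3. In both of these settings 2 members, Cd24a and Siglecg, passed against vehicle in either comparison, and the block changed the call of no other member. Of the 62 listed genes, 19 passed against vehicle in either comparison with the block, beside 22.4% of all genes with CD24 siRNA and 23.3% with scrambled siRNA. With the block and without CD24 siRNA replicate 3 it was 13 with CD24 siRNA and 19 with scrambled siRNA, beside 14.0% and 23.2% of all genes. Leaving out 1 array gave 2 to 8 with CD24 siRNA and 3 to 7 with scrambled siRNA, and using only the 2 groups compared gave 3 for scrambled siRNA, where fewer samples share the estimate of the spread. Without the block, both filters, both scalings, averaging probe sets, the intensity trend and the fit of 2 groups kept the direction and call of Cd24a in all 3 comparisons.

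Differences that turned their sign were all uncalled in the fit without the block, and the cause was not tested. In CD24 siRNA against scrambled siRNA, leaving out 1 array gave -0.29 to 0.18 for Siglecg, -0.11 to 0.15 for Hmgb1, -0.0334 to 0.0054 for Src, -0.18 to 0.0039 for Fyn and -0.0721 to 0.0362 for Cav1. With the block and without CD24 siRNA replicate 3, Hmgb1 was at -0.0040, Src at 0.0308 and Fyn at 0.0407, and with quantile normalization Src was at 0.0129 and Cav1 at 0.0098. In CD24 siRNA against vehicle, leaving out 1 array gave -0.24 to 0.28 for Selp, -0.0576 to 0.29 for Hmgb1, -0.23 to 0.0343 for Src and -0.26 to 0.0337 for Cav1, and Selp was at 0.0668 with the block and without CD24 siRNA replicate 3. In scrambled siRNA against vehicle it gave -0.45 to 0.11 for Selp, -0.10 to 0.0962 for L1cam, -0.0691 to 0.28 for Hmgb1, -0.22 to 0.0476 for Src and -0.26 to 0.0349 for Cav1.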
